A study of Mus musculus with 20 samples.

Results

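The genes described here are 9 regulators of G protein signalling (Rgs1, Rgs2, Rgs3, Rgs10, Rgs13, Rgs14, Rgs16, Rgs18 and Rgs19) and Gna13, which encodes the G protein subunit Gα13. They were taken by symbol, and are 10 of the 23382 genes in the expression files. RNA was sequenced from germinal centre B cells sorted from mice, in 20 libraries that form 4 groups of 5. The groups were centrocytes with 1 mutant allele (Myd88L252P:+/-), centrocytes with wild-type Myd88, centroblasts with 1 such allele, and centroblasts with wild-type Myd88. All 4 groups carried 1 copy of a Cre allele (Cgamma1Cre:+/-), so the wild-type groups, called controls below, are Cre carriers too. Cells were gated as B220+ FAS+ GL7+, and centrocytes were the CXCR4- CD86+ fraction and centroblasts the CXCR4+ CD86- fraction. Age, immunisation and the tissue taken are not given in the labels, and they do not say whether the 5 replicates of a group were separate animals. The p-values therefore reflect how far these libraries spread, which may be technical variation alone.

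MYD88 is the adaptor of Toll-like receptors, and the mutation L252P is the mouse counterpart of a recurrent mutation of human diffuse large B cell lymphoma. Cre in the Cγ1 locus is active in B cells that transcribe the constant region of IgG1, which includes germinal centre B cells but not each of them. The share of cells that had recombined was not measured here.

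RGS proteins bind active Gα subunits and speed up their GTP hydrolysis, which shortens signals from receptors such as those for chemokines. In B cells they dampen the responses to CXCL12 and CXCL13, the ligands of CXCR4 and CXCR5, which guide cells between the dark zone of centroblasts and the light zone of centrocytes. Gα13 passes signals from receptors such as S1PR2 to ARHGEF1 and RhoA, restrains migration and AKT, and keeps germinal centre B cells confined.

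Of the genes described here, those of the R4 subfamily, mostly small RGS proteins with little beyond the RGS domain, are Rgs1, Rgs2, Rgs3, Rgs13, Rgs16 and Rgs18. In the mouse genome GRCm38 (GENCODE annotation) 4 of them lay in the same stretch of chromosome 1, all on the minus strand. These were Rgs2 at chr1:143999338-144004161, Rgs13 at chr1:144138654-144177372, Rgs1 at chr1:144242296-144249242 and Rgs18 at chr1:144752683-144775435. Rgs2 and Rgs13 lay 134 kb apart and Rgs13 and Rgs1 64.9 kb apart, with 0 protein-coding genes between them. Rgs21, not analysed here, lay between Rgs1 and Rgs18. Rgs16 was farther along at chr1:153740349-153745468 on the plus strand, and Rgs3 was at chr4:62559847-62704001, plus strand. Rgs10 (chr7:128373621-128418758, minus) and Rgs14 (chr13:55369732-55384687, plus) belong to the R12 subfamily, Rgs19 (chr2:181688419-181693977, minus) to the RZ subfamily, and Gna13 was at chr11:109362831-109401369, plus strand.

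Rgs2 and Rgs13 are neighbours on chromosome 1 and both lay below all controls in mutant centrocytes, so their promoters are shown, as RefSeq gives them for GRCm38.p6. Each sequence is the 250 bases before the annotated start, written 5′ to 3′ on the minus strand, and 7 of the 10 genes had such a window. Capitals mark matches, on either strand, to the letters of 5 motifs, and the marked matches do not overlap. The motifs were the core of the cAMP response element, searched as ACGTCA, and the sites of AP-1, kappa B, EGR factors and the TATA box. The AP-1 site was searched as TGANTCA. The kappa B site was searched as a run of 3 G and a run of 2 C with 5 bases of any kind between them. The EGR site was searched as GCGNGGGCG. The TATA box was searched as TATAAA. The Rgs2 window lies at chr1:144004150-144004399 and the Rgs13 window at chr1:144177373-144177622.
Rgs2: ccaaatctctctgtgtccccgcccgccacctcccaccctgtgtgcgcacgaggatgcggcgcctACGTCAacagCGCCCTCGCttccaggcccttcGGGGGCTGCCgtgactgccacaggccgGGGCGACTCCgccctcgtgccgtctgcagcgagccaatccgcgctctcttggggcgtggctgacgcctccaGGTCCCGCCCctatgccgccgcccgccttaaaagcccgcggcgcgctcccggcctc
Rgs13: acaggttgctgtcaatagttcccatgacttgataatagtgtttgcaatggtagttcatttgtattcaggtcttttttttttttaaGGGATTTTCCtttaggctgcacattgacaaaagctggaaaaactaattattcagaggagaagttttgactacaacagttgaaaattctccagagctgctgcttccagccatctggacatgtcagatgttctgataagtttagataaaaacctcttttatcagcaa

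The 2 windows differed in base composition. The Rgs2 window had 72.4% G and C and 30 CG dinucleotides, and the Rgs13 window had 36% and 0, against a median of 52.4% and 6 over 32851 promoter windows. Rgs2 held 1 cAMP response element core, beginning 186 bases before the start and also found in 6.47% of all windows, 1 EGR match, found in 4.70%, and 3 kappa B matches, found in 45.8%. Rgs13 held 1 kappa B match, beginning 165 bases before the start. The TATA box letters were found in 12.4% of all windows and in neither of these, and the AP-1 letters in 6.75% and in no window of the 7 genes. A match is a description of letters and was not tested as a site.

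Values are the authors' TPM, a transcript abundance that sums to the same total in each library, and which scales each gene by its length, so levels can be set side by side between genes. Rgs13 was the highest of the 10 genes in each of the 20 libraries. It made up 42.4% to 49.8% of the summed TPM of the 9 Rgs genes in mutant centrocytes, 44.7% to 51.8% in control centrocytes, 44.7% to 65.9% in mutant centroblasts and 44.5% to 51.7% in control centroblasts. By group mean it ranked 181st, 95th, 118th and 122nd of the 23382 genes in the same order of groups. Rgs1, Rgs2, Rgs10, Rgs19 and Gna13 came next, Rgs14 and Rgs18 were lower in most libraries, and Rgs3 and Rgs16 were the 2 lowest in each library, at 0.0798 to 6.80 TPM. All 10 genes reached 1 TPM in at least 5 libraries and so entered the test.

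**Figure D1:**
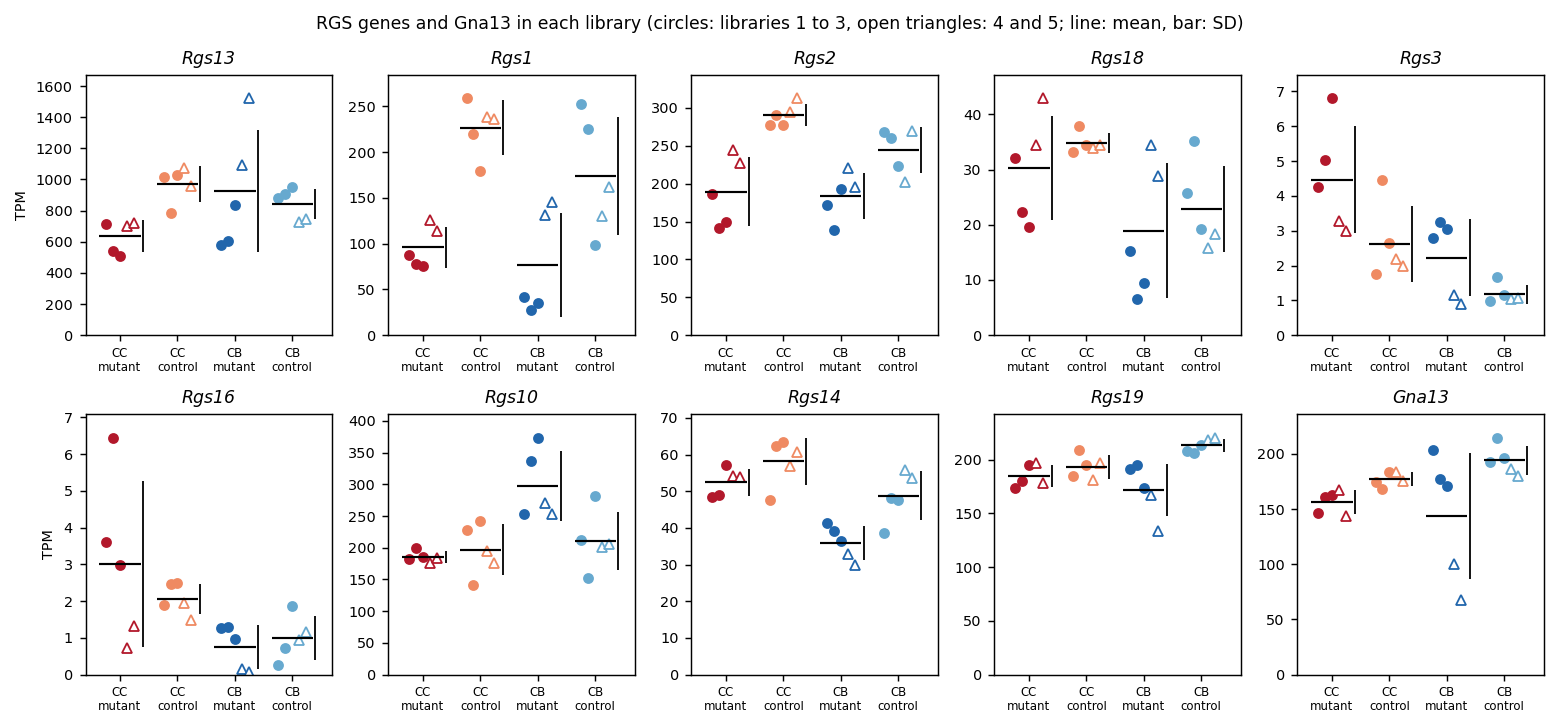
TPM of the 10 genes in each library (linear scale, 1 panel a gene), with circles for libraries 1 to 3 and open triangles for libraries 4 and 5, the line at the group mean and the bar 1 SD (n = 5 a group). Rgs1, Rgs2, Rgs13 and Gna13 of mutant centrocytes lie below every control centrocyte library, and open triangles stand apart in mutant centroblasts, where Rgs1 was 131 and 146 TPM in libraries 4 and 5 and 28.0 to 42.1 in libraries 1 to 3.

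A few facts of the libraries touch what follows. Mutant centroblast libraries 4 and 5 stood apart from the other 18: ribosomal protein genes took 12.5% to 17.1% of their TPM, against 7.37% to 10.01% elsewhere, and 12719 to 12895 genes were above 0, against 13053 to 14092. The sort genes followed their gate. Cd86 averaged 251 TPM in mutant centrocytes and 107 in mutant centroblasts, while Cxcr4 averaged 167 TPM in mutant centrocytes and 396 in mutant centroblasts. In controls Cd86 averaged 318 TPM in centrocytes and 143 in centroblasts, and Cxcr4 averaged 304 TPM in centrocytes and 575 in centroblasts. All 10 germinal centre markers were present, with a summed TPM of 8249 to 9262 in mutant centrocytes, 9225 to 9833 in control centrocytes, 8024 to 8846 in mutant centroblasts and 8649 to 8986 in control centroblasts. Myd88 RNA averaged 88.8 TPM in mutant centrocytes and 74.4 in control centrocytes, and 77.2 in mutant centroblasts and 82.5 in control centroblasts. A level of RNA does not show the allele, so Myd88 here does not check the genotype labels. The summed TPM of erythroid markers was higher in most mutant libraries, at 233 to 581 in mutant centrocytes and 42.9 to 273 in control centrocytes, and at 323 to 809 in mutant centroblasts and 23.2 to 271 in control centroblasts. Of the 4 erythroid genes tested 1 was called higher in mutant centrocytes and 3 in mutant centroblasts (1 and 4 with median-of-ratios scaling of the TPM), and 2 of the 8 found were at 0 in all libraries. The single tested gene of mast cells, basophils and eosinophils was called higher in mutant centrocytes, where the list summed to 5.70 to 60.3 TPM, against 0.910 to 3.33 TPM in control centrocytes. Of 2 tested NK cell genes 1 was called higher in mutant centrocytes, as was 1 of 2 tested dendritic cell genes. Both counts were the same with scaling, and 0.896% of all tested genes were called higher. No gene of these 2 lists was called for genotype in centroblasts, and no plasma cell gene in either zone. The part of these genes in the genotype differences below was not tested. In bulk RNA, fewer cells that express a gene and less of its RNA per cell cannot be told apart.

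The first comparison set mutant centrocytes against control centrocytes. Rgs2 fell, and Rgs1, Rgs13 and Gna13 also lay below every control library without passing the test of limma across 11386 genes (Benjamini-Hochberg adjusted p under 0.05, on log2(TPM + 1)). Thus 1 of the 10 genes was called, against 1.2% of all tested genes (0.307% lower), and 4 of 10 had mutant libraries wholly below the controls, against 1.99% of all tested genes. No gene of the 10 was called higher, against 0.896% of all. The median log2 fold change of the 10 was -0.16, against 0.02 over all tested genes, and 8 of the 10 were below 0.

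Rgs2, a regulator with a preference for Gαq, had 186, 141, 149, 244 and 227 TPM in mutant centrocytes, against 277, 290.4, 277, 294 and 313 TPM in control centrocytes. The highest mutant library, number 4, was below the lowest control. The means were 189.6 ± 45.7 TPM in mutants and 290.3 ± 14.8 TPM in controls (SD, n = 5 each), and the log2 fold change was -0.64 ± 0.14 (SE, adjusted p = 0.0209). The spread of the mutant libraries was the wider, since libraries 1 to 3 lay at 141 to 186 TPM and libraries 4 and 5 at 227 and 244. The call was lost when any of control centrocytes 4 or 5 or mutant centrocytes 1, 2 or 3 was left out, with adjusted p up to 0.0901, while the log2 fold change stayed between -0.74 and -0.55. It was also lost with median-of-ratios scaling of the TPM, where the log2 fold change was -0.67 (adjusted p = 0.0742).

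Rgs1, which acts on Gαi and Gαq and restrains chemokine responses of B cells, had 87.5, 77.8, 75.9, 126 and 114 TPM in mutant centrocytes, against 259, 219.7, 179, 238 and 237 TPM in control centrocytes. The groups did not overlap, and the mutant mean was 0.425 of the control mean. Its log2 fold change was -1.25 ± 0.38 (SE, adjusted p = 0.158), so it did not pass when the spread was estimated over all 20 libraries. In a fit of the 10 centrocyte libraries alone the same difference had an adjusted p of 0.00263 and, with mutant centroblasts 4 and 5 left out of the fit of all groups, one of 0.00562.

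Rgs13, a short RGS protein of germinal centre B cells that dampens responses through CXCR4 and CXCR5, had 713, 541, 510.2, 701 and 721 TPM in mutant centrocytes, against 1018, 782, 1029, 1077 and 957 TPM in control centrocytes. The highest mutant value was below the lowest control value, from control library 2. The means were 637 ± 103 TPM in mutants and 973 ± 115 TPM in controls (SD, n = 5 each), with a log2 fold change of -0.62 ± 0.19 (SE, adjusted p = 0.152). It passed in the fit of centrocytes alone (adjusted p = 0.0206), without mutant centroblasts 4 and 5 (0.00630) and without mutant centroblast 5 alone (0.0322). The sum of the 9 Rgs genes was 1384 ± 162 TPM in mutant centrocytes and 1977 ± 132 TPM in control centrocytes (SD, n = 5 each), with ranges of 1203 to 1536 TPM in mutants and 1750 to 2080.2 TPM in controls. Rgs13 had the largest difference of means among the 9.

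Gna13 had 146, 161, 163, 168 and 144 TPM in mutant centrocytes, against 175, 168, 184, 184 and 175 TPM in control centrocytes. The groups did not overlap, by a margin of under 1 TPM, and the log2 fold change was -0.18 ± 0.19 (SE, adjusted p = 0.976). Rgs3, which acts on Gαi and Gαq and also binds Gβγ, had 4.24, 5.04, 6.80, 3.27 and 2.99 TPM in mutant centrocytes and 1.76, 4.47, 2.65, 2.20 and 1.99 TPM in control centrocytes. The groups overlapped through control library 2, and the log2 fold change was 0.60 ± 0.24 (SE, adjusted p = 0.347). At these low levels the added 1 TPM shrinks a fold change.

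The other 5 genes overlapped between the genotypes in centrocytes. Rgs18, known from platelets and other blood cells, was at 19.6 to 42.9 TPM in mutants and 33.2 to 37.9 TPM in controls, with a log2 fold change of -0.25 ± 0.32 (SE, adjusted p = 0.9998). Rgs16, a regulator of Gαi and Gαq induced by activation in lymphocytes, was at 0.7096 to 6.45 TPM in mutants and 1.49 to 2.48 TPM in controls, with a log2 fold change of 0.22 ± 0.32 (SE, adjusted p = 0.9998). Rgs10, Rgs14 and Rgs19, which act on subunits of the Gαi family, had log2 fold changes between -0.14 and -0.06. Rgs10 was the tightest in mutants, at 175 to 199.8 TPM, against 142 to 242 TPM in controls.

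**Figure D2:**
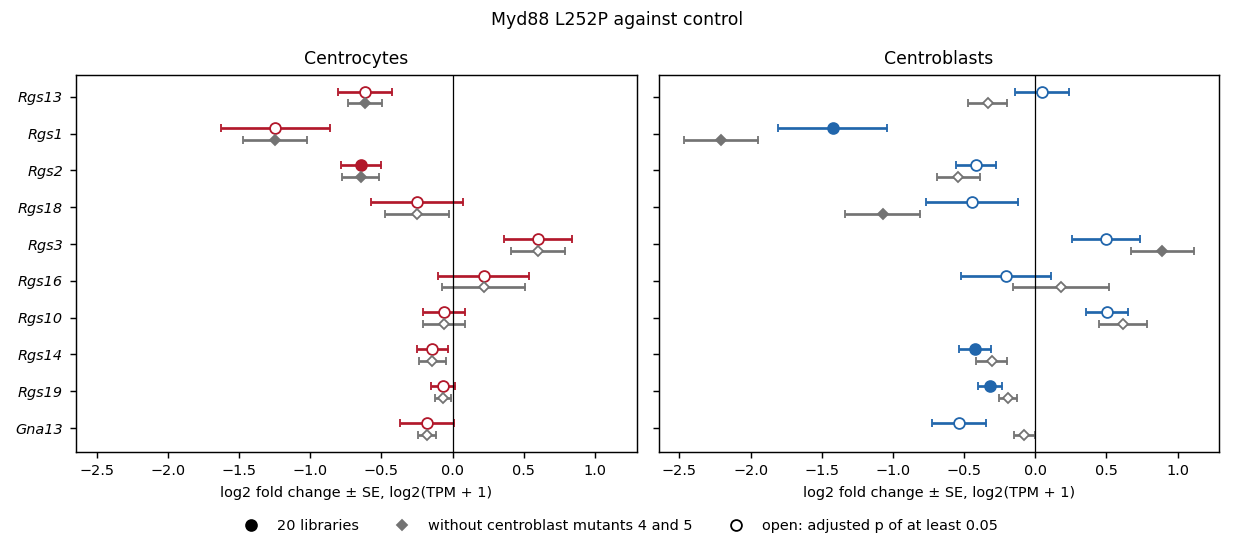
Log2 fold change of each gene on the log2(TPM + 1) scale with its SE (horizontal axis), mutant over control, in centrocytes and in centroblasts; circles use all 20 libraries, grey diamonds leave out mutant centroblasts 4 and 5, and open symbols have adjusted p of at least 0.05. Rgs1 is lowest in both panels, at -1.25 in centrocytes and -1.42 in centroblasts, and leaving out the 2 libraries moves it to -2.21 in centroblasts.

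In centroblasts, Rgs1, Rgs14 and Rgs19 were called lower in mutants and no gene of the 10 was called higher. These 3 calls of 10 stand beside 4.29% of all tested genes called, 3.38% lower and 0.905% higher. The median log2 fold change was -0.37 over the 10 and -0.16 over all tested genes, and 7 of the 10 were below 0. Only Rgs19 had mutant libraries wholly below the controls, 1 of 10 against 2.99% of all tested genes. With median-of-ratios scaling the calls of Rgs1, Rgs14 and Rgs19 were all lost. Rgs10 was then called higher, at 0.69 (adjusted p = 0.0178), beside 5.61% of all tested genes called in either direction.

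Rgs1 had 42.1, 28.0, 35.5, 131 and 146 TPM in mutant centroblasts, against 253, 225, 98.7, 130.4 and 162 TPM in control centroblasts. Mutant libraries 1 to 3 were below every control, while libraries 4 and 5 lay inside the control range. The log2 fold change was -1.42 ± 0.38 (SE, adjusted p = 0.0436), and without mutant libraries 4 and 5 it was -2.21 ± 0.26 (SE, adjusted p = 3.23e-04). The call depended on the setting: it was lost in 16 of the 20 fits that left out 1 library, with adjusted p up to 0.105, and kept without control centroblast 3 or mutant centroblast 1, 4 or 5. It was also lost with no filter on low values (adjusted p = 0.0588), with median-of-ratios scaling (0.0991) and in the fit of centroblasts alone (0.231).

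Rgs19, also called GAIP, had 191, 195, 174, 168 and 134 TPM in mutant centroblasts, against 208, 206, 214, 219 and 221 TPM in control centroblasts. The lowest control was above the highest mutant, and mutant library 5 was the lowest of all. Its log2 fold change was -0.32 ± 0.08 (SE, adjusted p = 0.0374). Rgs14, which also carries Ras-binding domains and a GoLoco motif for inactive Gαi, had 41.4, 39.2, 36.3, 33.0 and 30.0 TPM in mutant centroblasts, against 38.5, 48.1, 47.7, 55.7 and 53.6 TPM in control centroblasts. Its groups overlapped through control library 1, and the log2 fold change was -0.43 ± 0.11 (SE, adjusted p = 0.0345). Both calls were lost without mutant libraries 4 and 5, at -0.19 (adjusted p = 0.108) for Rgs19 and -0.31 (0.142) for Rgs14, and with median-of-ratios scaling, at -0.13 (0.205) and -0.24 (0.0969). In the fit of centroblasts alone they were lost too (0.2549 for Rgs19 and 0.2295 for Rgs14), as they were with no filter (0.05127 and 0.05016). The Rgs19 call was also lost with no trend and no robust step (0.05676). Leaving out 1 library lost the Rgs14 call for control centroblasts 2, 3, 4 and 5 and mutant centroblasts 4 and 5, and the Rgs19 call for these 6 and for control centroblast 1, with adjusted p up to 0.0895.

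Rgs10 in centroblasts had 254, 337, 374, 270.1 and 253 TPM in mutants, against 213, 152, 281, 201 and 206 TPM in controls. Control library 3 was above 3 of the mutants, and the other 4 controls were below all mutants. The log2 fold change was 0.50 ± 0.15 (SE, adjusted p = 0.0555), and it passed with median-of-ratios scaling, at 0.69 (adjusted p = 0.0178), and, narrowly, with a filter of 5 TPM in 5 libraries (0.04999). It also passed without control centroblast 3 (0.0290), mutant centroblast 1 (0.0151) or control centrocyte 2 (0.0457).

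Rgs2 in centroblasts had 172, 139, 193, 221 and 195 TPM in mutants, against 268, 261, 223, 202 and 269.6 TPM in controls, with a log2 fold change of -0.42 ± 0.14 (SE, adjusted p = 0.0751). Of its mutant values 4, from libraries 1, 2, 3 and 5, were below every control. Rgs3 had 2.79, 3.25, 3.05, 1.16 and 0.893 TPM in mutants, against 0.971, 1.66, 1.14, 1.05 and 1.07 TPM in controls, with a log2 fold change of 0.50 ± 0.24 (SE, adjusted p = 0.165). Mutant libraries 1 to 3 of Rgs3 were above every control and libraries 4 and 5 were not, and without those 2 the log2 fold change was 0.89 ± 0.22 (SE, adjusted p = 0.0272). Rgs18 had 15.3, 6.63, 9.41, 34.4 and 28.9 TPM in mutants, against 25.7, 35.2, 19.2, 15.8 and 18.4 TPM in controls, with a log2 fold change of -0.44 ± 0.32 (SE, adjusted p = 0.340). In the same way its mutant libraries 1 to 3 lay below every control and libraries 4 and 5 did not, and without those 2 it was -1.07 ± 0.26 (SE, adjusted p = 0.0277).

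Rgs13 in centroblasts had 582, 605, 835, 1094 and 1522 TPM in mutants, against 879, 907, 951, 729.7 and 749 TPM in controls. Mutant libraries 4 and 5 were the 2 highest of the 10 and libraries 1 and 2 the 2 lowest, and the log2 fold change was 0.05 ± 0.19 (SE, adjusted p = 0.876). Gna13 had 204, 177, 171, 101 and 67.6 TPM in mutants, against 193, 215, 197, 186 and 180.0 TPM in controls, with a log2 fold change of -0.54 ± 0.19 (SE, adjusted p = 0.0867). Libraries 4 and 5 held the low values, and without them the log2 fold change of Gna13 was -0.08 (adjusted p = 0.717), while it passed without mutant centroblast 1, at -0.69 (0.0116). Rgs16 was at 0.0798 to 1.29 TPM in mutants and 0.253 to 1.87 TPM in controls, with a log2 fold change of -0.20 ± 0.32 (SE, adjusted p = 0.671).

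Among centrocytes, mutant libraries 4 and 5 also lay apart from 1 to 3 in Rgs1, Rgs2, Rgs3, Rgs16 and Rgs18. Those libraries did not stand apart in ribosomal protein genes. Rgs1 was 114 and 126 TPM in the 2 and 75.9 to 87.5 TPM in the other 3, and Rgs2 was 227 and 244 against 141 to 186 TPM. Rgs18 was 34.5 and 42.9 against 19.6 to 32.0 TPM. Rgs3 and Rgs16 were lower in the 2, at 2.99 and 3.27 against 4.24 to 6.80 TPM and at 0.7096 and 1.32 against 2.99 to 6.45 TPM. In Rgs10, Rgs13, Rgs14, Rgs19 and Gna13 the 2 and the other 3 overlapped. How many of all tested genes split in this way was not counted. In fits without mutant libraries 4 and 5 of both zones, chosen after seeing these values, Rgs1, Rgs2 and Rgs13 were called lower and Rgs3 higher in mutant centrocytes, with log2 fold changes of -1.48, -0.87, -0.73 and 0.84, and 6.86% of all tested genes were called. In centroblasts Rgs1, Rgs2 and Rgs18 were called lower and Rgs3 higher, with log2 fold changes of -2.21, -0.54, -1.07 and 0.89, beside 4.14% of all. In both zones mutant libraries 4 and 5 held the values of Rgs1, Rgs2 and Rgs3 nearest the controls, as for Rgs18 in centroblasts. Larger fold changes of these genes therefore follow from the choice, and the added calls are not separate support. The cause of the difference between these libraries was not tested.

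**Figure D3:**
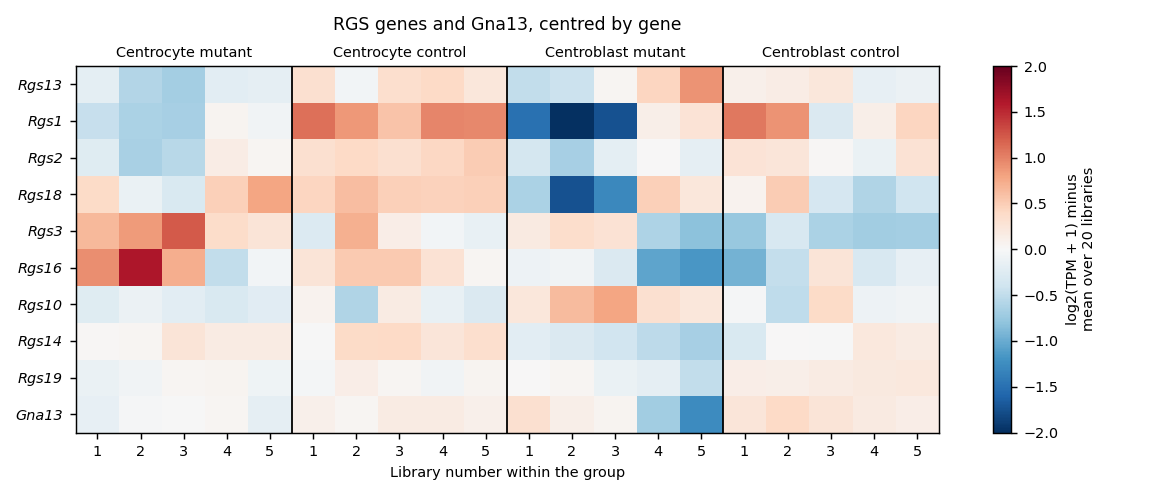
Log2(TPM + 1) of each gene minus its mean over the 20 libraries (colour, limits at -2 and 2), with genes in rows and libraries in columns, mutants left of controls within each zone. In mutant libraries 1 to 3 of both zones Rgs1 and Rgs2 lie below their means, and Rgs18 does so in centroblasts, while in centrocytes its library 1 is above the mean, at 0.38.

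The difference between the genotype effects, centrocytes minus centroblasts, was tested as an interaction. None of the 10 genes was called by limma, against 0.0176% of all tested genes, and 3 had an unadjusted p under 0.05. These were Rgs10 with a difference of -0.56 ± 0.21 (SE, adjusted p = 0.403), Rgs13 with -0.66 ± 0.27 (SE, adjusted p = 0.403) and Rgs19 with 0.25 ± 0.12 (SE, adjusted p = 0.403) on the log2 scale. So the calls above that passed in 1 zone and not in the other were not shown to differ between the zones.

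The zones were compared in each genotype, with centrocytes set against centroblasts. These comparisons use the same libraries as those of genotype. In mutants 6 of the 10 genes were called, against 61.5% of all tested genes, with 4 higher (48.8% of all) and 2 lower (12.6%). In controls 1 was called, higher, against 30.7% of all tested genes (21.2% higher and 9.48% lower). Both shares are no larger than the background. The median log2 fold change of the 10 was 0.38 in mutants and 0.26 in controls, against 0.34 and 0.14 over all tested genes, and is read relative to these shifts.

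Rgs14 rose in mutant centrocytes, at 48.5, 49.0, 57.2, 54.1 and 53.9 TPM, against 41.4, 39.2, 36.3, 33.0 and 30.0 TPM in mutant centroblasts. The groups did not overlap and the log2 fold change was 0.54 ± 0.11 (SE, adjusted p = 3.40e-04); with median-of-ratios scaling it was 0.19 (adjusted p = 0.0775). In controls the same comparison gave 47.7, 62.5, 63.5, 56.8 and 60.7 TPM in centrocytes and 38.5, 48.1, 47.7, 55.7 and 53.6 TPM in centroblasts, with a log2 fold change of 0.26 ± 0.11 (SE, adjusted p = 0.0822). These groups overlapped through control centrocyte 1, without which the gene passed (adjusted p = 0.0316), as it did without mutant centroblasts 4 and 5 (0.0302).

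Rgs10 fell in mutant centrocytes, whose 5 values between 175 and 199.8 TPM were all below the lowest mutant centroblast, at 253 TPM, and the log2 fold change was -0.66 ± 0.15 (SE, adjusted p = 7.36e-04). It was called in each of the 20 fits that left out 1 library, with adjusted p of at most 0.00280. In controls its centrocytes and centroblasts overlapped, at 142 to 242 TPM in centrocytes and 152 to 281 TPM in centroblasts, with a log2 fold change of -0.10 ± 0.15 (SE, adjusted p = 0.643). Rgs13 was also lower in mutant centrocytes than in mutant centroblasts, with a log2 fold change of -0.46 ± 0.19 (SE, adjusted p = 0.0420). That call was lost when mutant centroblasts 3, 4 or 5 or mutant centrocytes 2 or 3 were left out, and without mutant centroblasts 4 and 5 together the log2 fold change was -0.08 (adjusted p = 0.666).

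Rgs3 was higher in centrocytes in both genotypes. Its log2 fold change was 0.80 ± 0.24 (SE, adjusted p = 0.00688) in mutants and 0.69 ± 0.24 (SE, adjusted p = 0.0318) in controls, and in controls the lowest centrocyte library, at 1.76 TPM, was above the highest centroblast library, at 1.66 TPM. The control call was lost when control centroblasts 1, 3, 4 or 5 or control centrocytes 2 or 3 were left out, and the mutant call without mutant centroblasts 4 and 5, at 0.40 (adjusted p = 0.137). Rgs16 was higher in mutant centrocytes, with a log2 fold change of 1.08 ± 0.32 (SE, adjusted p = 0.00584), and in controls it was at 1.49 to 2.48 TPM in centrocytes and 0.253 to 1.87 TPM in centroblasts, with a log2 fold change of 0.66 ± 0.32 (SE, adjusted p = 0.116), which passed in the fit of the control libraries alone (0.0160). The mutant call of Rgs16 was lost without mutant centroblasts 4 and 5, at 0.70 (0.0902).

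Rgs18 was higher in mutant centrocytes, with a log2 fold change of 0.83 ± 0.32 (SE, adjusted p = 0.0297), against 0.64 ± 0.32 (SE, adjusted p = 0.133) in controls. The mutant call was lost when mutant centroblasts 1, 2 or 3 or mutant centrocytes 1, 4 or 5 were left out, with median-of-ratios scaling, at 0.49 (adjusted p = 0.297), and in the fit of the mutant libraries alone (0.0910). The control difference passed in the fit of the control libraries alone (0.00590) and without mutant centroblasts 4 and 5 (0.0264). Rgs1 was not called in either genotype. Its log2 fold change was 0.63 ± 0.38 (SE, adjusted p = 0.160) in mutants and 0.45 ± 0.38 (SE, adjusted p = 0.388) in controls, and in mutants it was 1.41 (adjusted p = 3.45e-04) without mutant centroblasts 4 and 5. Leaving out mutant centroblast 4 alone or 5 alone also brought it past the threshold, at 0.91 (0.0422) and 0.94 (0.0349).

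Rgs2 in controls had every centrocyte library above every centroblast library, with the lowest at 277 TPM and the highest at 269.6 TPM, and a log2 fold change of 0.25 ± 0.14 (SE, adjusted p = 0.166), which passed in the fit of the control libraries alone (0.0205). Of the 10 genes, 2 had such separation in controls, both higher, against 17% of all tested genes. In mutants the means of Rgs2 were 189.6 ± 45.7 TPM in centrocytes and 184 ± 30.5 TPM in centroblasts (SD, n = 5 each), with a log2 fold change of 0.03 ± 0.14 (SE, adjusted p = 0.884). In mutants 1 of the 10 genes was separated upward and 1 downward, against 28.7% and 7.91% of all tested genes. Rgs19 and Gna13 were not called in either genotype with the TPM as deposited. With median-of-ratios scaling Rgs19 was called lower in centrocytes of both, at -0.24 (adjusted p = 0.00450) in mutants, where it had been 0.11 ± 0.08 (SE, adjusted p = 0.256), and at -0.29 (0.00286) in controls, where it had been -0.14 ± 0.08 (SE, adjusted p = 0.205). The control difference of Rgs19 also passed without mutant centroblasts 4 and 5 (0.0407). Gna13 without mutant centroblasts 4 and 5 was lower in mutant centrocytes, at -0.23 (adjusted p = 0.0130), where it had been 0.23 ± 0.19 (SE, adjusted p = 0.312) with them.

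**Figure D4:**
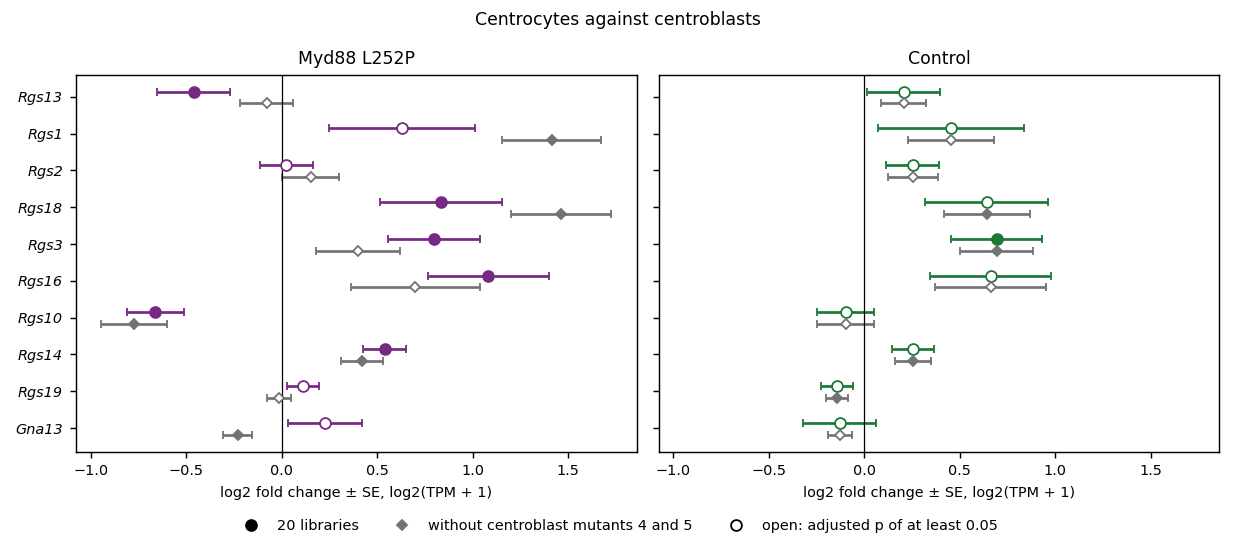
Log2 fold change of each gene on the log2(TPM + 1) scale with its SE (horizontal axis), centrocytes over centroblasts, in mutants and in controls; symbols as in the plot of genotype effects. Rgs14 lies at 0.54 and Rgs10 at -0.66 in mutants, and in controls only Rgs3, at 0.69, passes with all 20 libraries.

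Over the 4 groups the order of the means differed by gene. For Rgs1 and Rgs2 it was control centrocytes, control centroblasts, mutant centrocytes and mutant centroblasts, from high to low. Neighbours in this order overlapped, except the 2 control groups of Rgs2. Rgs13 was highest in control centrocytes, then mutant centroblasts and control centroblasts, which overlapped with each other, and the 5 mutant centrocyte libraries lay below those of both control groups. Rgs10 was highest in mutant centroblasts, and the other 3 groups overlapped. Rgs19 and Gna13 were highest in control centroblasts, followed by control centrocytes, mutant centrocytes and mutant centroblasts, and of the neighbours in this order only the 2 centrocyte groups of Gna13 did not overlap. Rgs14 and Rgs18 were highest in control centrocytes and lowest in mutant centroblasts. Rgs3 and Rgs16 were highest in mutant centrocytes. Mutant centroblasts 4 and 5 held the highest Rgs13 and the lowest Gna13 values of their group, which moves its place in these 2 orders.

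By likeness of pattern, measured as the root mean square difference of log2(TPM + 1), each gene centred on its mean over the 20 libraries, 3 genes of 10126 candidates were taken for each gene called in any comparison. The difference is read against the gene's own root mean square deviation. Rgs1, with a deviation of 0.92, was nearest to Crisp3 (0.45), Rgs18 (0.57) and Cd69 (0.60), the last encoding an activation marker that retains lymphocytes by opposing S1PR1. Rgs2 (0.35) was nearest to Spata6, Sgk3 and Efcab7, each at 0.19, and Rgs13 (0.38) to Gngt2 (0.24), which encodes a G protein γ subunit, Nudt14 (0.25) and Mthfs (0.25). Rgs19 (0.16) was nearest to Daxx, Rnf114 and Tatdn2 (0.05 to 0.07). Rgs3 was nearest to Dmwd, Anxa4 and H2-K1, Rgs16 to Ctla4, Il6st and Ern1, Rgs18 to Anxa1, Adap1 and Samd9l, and Rgs10 to D16H22S680E, Tg and Ngfrap1. These are descriptions over 20 libraries that share their groups.

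The rest of the pathway was described from lists, whose counts of calls are read against the shares of all tested genes. Between zones 48.8% of all were called higher and 12.6% lower in mutant centrocytes, and 21.2% and 9.48% in control centrocytes. In either direction, 58.5% of all were called in mutants and 35.6% in controls with median-of-ratios scaling. For genotype 0.896% were called higher and 0.307% lower in centrocytes, and 0.905% and 3.38% in centroblasts. With median-of-ratios scaling, which lowers the median zone difference of all tested genes by 0.32 in mutants and by 0.13 in controls on the log2 scale, the counts between zones change, and the scaled counts are given beside them. It raises the median genotype difference in centroblasts by 0.16, and where that adds or ends a call of these lists the gene is named. Of 14 other RGS genes and binding partners 13 were found and 3 were tested, with 0 called for genotype in either zone by limma. With scaling Rgs4 was called higher in mutant centroblasts, at 0.75 (adjusted p = 0.0272), against 0.60 (0.0931) without it. Rgs4, named after its values were seen, was lower in centrocytes of both genotypes, at a mean of 0.338 TPM in mutant centrocytes and 4.49 in mutant centroblasts, and of 0.334 TPM in control centrocytes and 2.49 in control centroblasts. Rgs9 was the most abundant of them, at 3.93 to 19.0 TPM. Of 12 other Gα genes 9 were tested and none was called for genotype. For zone 4 were higher in mutant centrocytes and 0 lower (2 and 2 with scaling), and 2 were higher and 1 lower in control centrocytes (2 and 1). Gnaq, which encodes the Gαq subunit that Rgs2 acts on, had a log2 fold change of 1.19 ± 0.22 (SE, adjusted p = 1.06e-04) in mutants and 0.75 ± 0.22 (SE, adjusted p = 0.0116) in controls, and Gnal had 0.65 ± 0.15 (SE, adjusted p = 0.00119) in mutants and 0.51 ± 0.15 (SE, adjusted p = 0.0155) in controls. Gnai3, of the Gαi family, had 0.37 ± 0.10 (SE, adjusted p = 0.00271) in mutants, and 0.02 with scaling, and Gnas, which encodes Gαs, had -0.26 ± 0.10 (SE, adjusted p = 0.0479) in controls.

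Of the 15 Gβ and Gγ genes 11 were tested, with none called for genotype. With scaling Gnb4 was called higher in mutant centroblasts, at 0.60 (adjusted p = 0.0388), against 0.41 (0.167) without it. In mutant centrocytes 1 was higher and 4 lower than in mutant centroblasts (0 and 9 with scaling), and in control centrocytes 0 were higher and 3 lower (0 and 6). Gnb2 had a log2 fold change of -0.54 ± 0.09 (SE, adjusted p = 3.26e-05) in mutants and -0.40 ± 0.09 (SE, adjusted p = 0.00153) in controls, Gnb4 -0.83 ± 0.20 (SE, adjusted p = 0.00145) in mutants and -0.74 ± 0.20 (SE, adjusted p = 0.00780) in controls, and Gng5 -0.49 ± 0.09 (SE, adjusted p = 1.64e-04) in mutants and -0.34 ± 0.09 (SE, adjusted p = 0.00846) in controls.

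The 20 G protein coupled receptors that position B cells were all tested. In centrocytes 2 were higher and 1 lower in mutants: Ccr6, the receptor of CCL20, averaged 114 TPM in mutants and 56.2 in controls, with a log2 fold change of 1.08 ± 0.24 (SE, adjusted p = 0.0246). Ccr7, which draws B cells to the T cell zone, averaged 28.3 TPM in mutants and 13.3 in controls, with 1.02 ± 0.24 (SE, adjusted p = 0.0311). Cxcr4 averaged 167 TPM in mutants and 304 in controls, with -0.86 ± 0.14 (SE, adjusted p = 0.00277), in cells gated as CXCR4-. In centroblasts 0 were higher and 4 lower in mutants, among them S1pr3 at -0.78 ± 0.14 (SE, adjusted p = 0.00600), Cxcr4 at -0.59 ± 0.14 (SE, adjusted p = 0.0270) and Gpr174 at -0.81 ± 0.20 (SE, adjusted p = 0.0280), the last not called with scaling (-0.65, adjusted p = 0.0897). The zones differed in most of them, with 16 higher and 3 lower in mutant centrocytes (the same with scaling) and 14 higher and 2 lower in control centrocytes (14 and 3). The lower calls of both genotypes include Cxcr4, whose protein was part of the gate, so its zone difference is no separate result. Ccr6 had a log2 fold change of 4.80 ± 0.24 (SE, adjusted p = 5.69e-12) in mutants and 3.94 ± 0.24 (SE, adjusted p = 1.97e-10) in controls, and S1pr3 2.06 ± 0.14 (SE, adjusted p = 7.37e-10) in mutants and 1.47 ± 0.14 (SE, adjusted p = 2.50e-07) in controls. Gpr183, the oxysterol receptor EBI2, had 1.91 ± 0.17 (SE, adjusted p = 2.67e-08) in mutants, and Adora2a, an adenosine receptor, 1.82 ± 0.21 (SE, adjusted p = 1.46e-06) in controls.

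Of 12 genes downstream of Gα12 and Gα13, 10 were tested. None was called for genotype in centrocytes and 1 was lower in mutant centroblasts, Ppp1r12a, the myosin phosphatase target that ROCK acts on, at -0.68 ± 0.19 (SE, adjusted p = 0.0466). Between zones 6 were higher and 1 lower in mutant centrocytes (5 and 3 with scaling), and 2 higher and 1 lower in control centrocytes (2 and 2). Rock1, a kinase activated by RhoA, had a log2 fold change of 0.88 ± 0.13 (SE, adjusted p = 1.67e-05) in mutants and 0.50 ± 0.13 (SE, adjusted p = 0.00780) in controls, and Arhgef12, an exchange factor for RhoA, 0.67 ± 0.13 (SE, adjusted p = 2.34e-04) in mutants and 0.56 ± 0.13 (SE, adjusted p = 0.00294) in controls. Rock2 had 0.76 ± 0.17 (SE, adjusted p = 7.63e-04) in mutants, and Arhgdib had -0.32 ± 0.09 (SE, adjusted p = 0.00851) in controls.

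Of 14 genes downstream of Gαi, Gαq and Gβγ, 10 were tested, with 1 higher and 0 lower in mutant centrocytes and 0 higher and 3 lower in mutant centroblasts. The 3 were Adcy7, an adenylyl cyclase, at -0.76 ± 0.18 (SE, adjusted p = 0.0260), Pik3cg, the PI3Kγ catalytic subunit, at -0.67 ± 0.16 (SE, adjusted p = 0.0286), and Prkcb, protein kinase Cβ, at -0.84 ± 0.21 (SE, adjusted p = 0.0301). Between zones 8 were higher and 0 lower in mutant centrocytes (7 and 2 with scaling), and 6 higher and 0 lower in control centrocytes (6 and 2), with Plcb2 at 1.56 ± 0.16 (SE, adjusted p = 1.14e-07) in mutants and 1.005 ± 0.159 (SE, adjusted p = 7.01e-05) in controls and Pik3r5, the regulatory partner of PI3Kγ, at 1.97 ± 0.20 (SE, adjusted p = 7.77e-08) in mutants and 1.34 ± 0.20 (SE, adjusted p = 2.88e-05) in controls. Prkcb had 1.51 ± 0.21 (SE, adjusted p = 6.82e-06) in mutants and Adcy7 0.65 ± 0.18 (SE, adjusted p = 0.00921) in controls.

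Of 12 receptor kinases, arrestins and G protein helpers 10 were tested, with none called for genotype in either zone. Between zones 4 were higher and 3 lower in mutant centrocytes (3 and 5 with scaling), and 2 higher and 3 lower in control centrocytes (2 and 4). Ric8b, a chaperone of Gα subunits, had a log2 fold change of 1.02 ± 0.18 (SE, adjusted p = 7.59e-05) in mutants and 0.77 ± 0.18 (SE, adjusted p = 0.00258) in controls, and Gpsm2, which binds inactive Gαi, -0.44 ± 0.14 (SE, adjusted p = 0.0100) in mutants and -0.59 ± 0.14 (SE, adjusted p = 0.00312) in controls. Grk5 had 1.31 ± 0.29 (SE, adjusted p = 7.24e-04) in mutants and Adrbk1, an older symbol of Grk2, -0.42 ± 0.10 (SE, adjusted p = 0.00316) in controls. The interaction of genotype and zone was called for 0 genes of any of these lists.

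Markers of other cells were set beside these results. T cells express Rgs1 and Rgs16 too: 4 of 11 listed T cell genes were under 1 TPM in all libraries, Cd3e reached at most 1.37 TPM, and the summed level of 207 to 251 TPM in mutant centrocytes, 183 to 302 in control centrocytes, 167 to 250 in mutant centroblasts and 102 to 234 in control centroblasts was mostly Lck. Of the 4 T cell genes tested, 3 were called higher in centrocytes than in centroblasts in controls and 1 in mutants (the same with scaling), against 21.2% and 48.8% of all tested genes. Platelets express Rgs18: 7 of 14 platelet genes were under 1 TPM in all libraries, Pf4 reached at most 1.70 TPM, and the summed level was 25.6 to 46.1 TPM, 28.0 to 43.3, 23.5 to 78.3 and 44.4 to 58.9 TPM in mutant centrocytes, control centrocytes, mutant centroblasts and control centroblasts, most of it Itgb3. Macrophage, monocyte and neutrophil genes moved with zone: 15 of 16 were found and 10 tested, 7 were called higher in mutant centrocytes and 8 in control centrocytes than in centroblasts, and 0 for genotype. With scaling Lyz2 was called higher in mutant centroblasts, at 0.58 (adjusted p = 0.0360), as were the T cell genes Cd3g, at 0.72 (0.0367), and Lck, at 0.68 (0.0295), none of them called without it. The summed level of the macrophage, monocyte and neutrophil genes was 111 to 244 TPM in mutant centrocytes, 157 to 236 in control centrocytes, 43.3 to 109 in mutant centroblasts and 52.9 to 72.7 in control centroblasts, with Csf1r at 0.808 to 21.2 TPM and Lyz2 at 15.3 to 43.7 TPM. Naive B cell markers moved with zone too, with 8 of 8 tested called higher in mutant centrocytes and 6 of 8 in control centrocytes (6 and 5 with scaling), and sums of 834 to 1021 TPM in mutant centrocytes, 718 to 1077 in control centrocytes, 223 to 389 in mutant centroblasts and 369 to 471 in control centroblasts. For genotype, 2 of the 8 were called higher in mutant centrocytes, against 0.896% of all tested genes, and 3 lower in mutant centroblasts, against 3.38% (2 and 2 with scaling). The part of these lists in the zone differences of Rgs3, Rgs14, Rgs16 and Rgs18 was not tested. Nor was their part in the genotype differences.

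Overlapping annotation touches 4 of the genes. In the annotation antisense genes overlap Rgs3 (Gm11209), Rgs16 (Gm28513) and Gna13 (Gm11696, at 16.6 to 35.9 TPM), and Gm15503 lies on the same strand as Rgs10. The kit is stranded, but the strand setting of the counting is not given in the sources used here. The 50-base words of the longest protein-coding transcript of each gene were searched in the transcripts of other genes, in the sense orientation only. Of these words 0 were shared with other genes for the 9 Rgs genes, and 11 of 6095 (0.18%) for Gna13. Words found only in shorter transcripts were not searched.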

How the data were processed

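Total RNA went into a stranded mRNA kit, per the labels' protocols. The deposited files hold 1 TPM value per gene symbol, computed by the authors. STAR and mm10 are named without versions, per the submitters' processing notes, and annotation, counting tool and strand setting are not given in the sources. TPM keeps no read depth, so depth is unknown and no counting intervals are given. All 190 pairs of the 20 files differed in their values. Groups follow the sort and genotype in the labels.

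Differences were tested two-sided with limma 3.58.1 in R 4.3.3, with a trended and robust empirical Bayes step, on log2(TPM + 1). The fit had 4 group means and 16 residual degrees of freedom. It took the 11386 of 23382 genes that reached 1 TPM in 5 or more libraries, with Benjamini-Hochberg adjustment over them at 0.05. The same script was tested on simulated data. A fold change is on this log scale and understates changes of low genes. Groups do not overlap where all 5 libraries of one lie beyond all 5 of the other. The 5 comparisons were genotype in each zone, their difference, and zone in each genotype. Of 209 listed symbols 204 were found. The members and lists were chosen with earlier results of these data known. All members are named. The genes nearest in pattern to Rgs14 are not reported here. Of each other list, up to 3 called genes per comparison by adjusted p, with a group mean of at least 5 TPM, are named. Alternatives were pseudocount, filter, scaling, groups alone, variance model, replicate block, and libraries left out. Positions came from GENCODE for GRCm38 and promoters from RefSeq.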

Additional observations from a re-analysis of the deposited data

Results flagged for a closer look

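In 2 of 40 sets of 5 libraries (10 genes in 4 groups) 1 library lay far from the other 4 by Dixon's criterion, and chance marks about 1 set in 20. Rgs3 in control centroblasts was highest in library 2, at 1.66 TPM, against 0.971 to 1.14 TPM in the other 4. Rgs18 in control centrocytes was highest in library 2, at 37.9 TPM, against 33.2 to 34.5 TPM in the other 4. No genotype effect of the 10 genes was called as differing between the zones.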

How the results depend on the processing

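The count of called genes of the 10 moved most, and the share of all genes called, given in brackets, moved with it. For genotype in centrocytes, 1 with all libraries (1.2%), it was 0 with median-of-ratios scaling (1.76%), 3 in the fit of the 2 groups alone (2.64%), 3 without mutant centroblasts 4 and 5 (3.38%), 4 without mutant libraries 4 and 5 of both zones (6.86%), and 0 to 2 when 1 library was left out (0.404% to 2.08%). For genotype in centroblasts, 3 with all libraries (4.29%), it was 0 with no filter (1.64%), 1 with median-of-ratios scaling (5.61%), 0 in the 2 groups alone (0.211%), and 0 to 6 with 1 library left out (1.29% to 27.2%), the 6 and the 27.2% both without mutant centroblast 1. The 1 call with scaling was Rgs10, higher, and the calls of Rgs1, Rgs14 and Rgs19 were all lost. Without mutant centroblasts 4 and 5 the count was 3 (3.57%), but of other genes in part: Rgs1 and Rgs18 lower and Rgs3 higher. For zone in controls, 1 with all libraries (30.7%), it was 0 with a 5 TPM filter, which leaves out Rgs3 and Rgs16 (32%), 2 with that scaling (35.6%), 4 in the 2 groups alone (45.9%), 4 without mutant centroblasts 4 and 5 (47.6%), 6 without mutant libraries 4 and 5 of both zones (47.6%), and 0 to 2 with 1 library left out (23.2% to 41.5%). For zone in mutants, 6 (61.5%), it was 4 to 7 (45.1% to 64.5%), and for the difference 0 throughout. With the replicate number as a block over the 20 libraries the count was 1 for genotype in centrocytes (2.13%) and 4 in centroblasts (6.96%), where Rgs10 was added (adjusted p = 0.0319). With the number within genotype as a block it was 7 for zone in mutants (64.3%), where Rgs1 was added (0.0426), 4 in controls (36.9%), where Rgs2 (0.0474), Rgs16 (0.0106) and Rgs18 (0.0123) were added, and 0 for the difference. Same-numbered libraries correlated over 0.1 in 4 of 5 pairs between zones in mutants and in 4 of 5 in controls, and 5 and 8 of the 10 libraries correlated best with their own number. The labels do not say what the numbers mark, and since 1 pair in each genotype was not over 0.1 they were not taken as pairs.

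Of the genes' log2 fold changes, 921 of 1000 with 1 library left out and 353 of 430 under the other settings kept their direction and their side of the threshold. Directions reversed in 19 of the 430. Median-of-ratios scaling moved the median of all genes from -0.157 to 0.00771 for genotype in centroblasts, from 0.336 to 0.0182 for zone in mutants and from 0.136 to 0.00579 for zone in controls. It gave for the difference -0.034 (Rgs1), -0.037 (Rgs3) and -0.012 (Rgs18), and for zone in mutants -0.33 (Rgs2), -0.24 (Rgs19, adjusted p = 0.00450) and -0.13 (Gna13). Without mutant centroblasts 4 and 5 the genotype effect in centroblasts was -0.33 for Rgs13 and 0.18 for Rgs16, the difference was -0.29 for Rgs3 and -0.10 for Gna13, and zone in mutants was -0.013 for Rgs19 and -0.23 for Gna13. Without mutant libraries 4 and 5 of both zones these were -0.33, 0.18, -0.051, -0.097, -0.027 and -0.23, and zone in mutants was -0.078 for Rgs2. With 1 library left out, 18 of 1000 values reversed: genotype in centrocytes ran over -0.053 to 0.48 for Rgs16 and -0.17 to 0.022 for Rgs10, genotype in centroblasts over -0.15 to 0.19 for Rgs13, the difference over -0.094 to 0.49 for Rgs1, -0.069 to 0.26 for Rgs3 and -0.093 to 0.46 for Rgs18, zone in controls over -0.21 to 0.012 for Rgs10, and zone in mutants over -0.074 to 0.12 for Rgs2 and -0.016 to 0.38 for Gna13. The cause was not tested. The difference has no fit of 2 groups alone, since it needs all 4.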
